A study of Mus musculus with 6 samples.

Results

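*Nodal*, *Gdf3*, *Lefty1*, *Lefty2*, *Tdgf1*, *Cfc1*, *Acvr1b*, *Acvr2b* and *Foxh1* encode the ligands, secreted antagonists, co-receptors, receptors and nuclear partner of Nodal signaling. These genes were chosen by symbol and are 9 of the 20631 genes measured, each represented by 1 RefSeq transcript. They were followed by RNA-seq in neuromesodermal progenitors (NMPs), caudal cells of the embryo that can form both spinal cord and presomitic mesoderm, after exposure to retinoic acid (RA), which binds nuclear receptors (RARs) that regulate transcription. The 3 groups were the DMSO vehicle, 25 nM RA and 1 µM RA, each given for 2 h, with 2 samples per group. All groups were mouse embryonic stem cells taken through bFGF for 2 days and bFGF with the WNT agonist CHIR99021 for 1 day, in medium with a retinoid-free supplement, and bFGF and CHIR99021 were absent from the final 2 h. The labels give the strain as 129 R1, whereas the methods describe a C57BL/6 stem cell line grown on fibroblast feeders. The duplicates were separate dishes that the methods call technical replicates, so errors and p-values reflect the spread between dishes.

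Nodal is a secreted ligand of the TGF-beta family that signals through ACVR1B and ACVR2B only when an EGF-CFC co-receptor, the product of *Tdgf1* (Cripto) or *Cfc1* (Cryptic), is present. The activated receptors phosphorylate SMAD2 and SMAD3, which enter the nucleus and act at target genes together with the forkhead factor FOXH1. *Nodal*, *Lefty1* and *Lefty2* are themselves targets of the pathway, and the Lefty proteins bind Nodal and its co-receptors and block signaling, which forms a feedback loop used in mesendoderm formation and in left-right patterning of the embryo.

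Each sample held between 31753556 and 42029348 estimated counts in all. *Rarb*, a direct target of RA, had a mean of 0.237 RPKM (reads scaled to the length of the transcript and the depth of the library) in DMSO, 5.28 RPKM with 25 nM RA and 6.77 RPKM with 1 µM RA. All 7 NMP markers exceeded 1 RPKM in every sample and summed to 491 to 503 RPKM in DMSO, 549 to 565 RPKM with 25 nM RA and 543 to 559 RPKM with 1 µM RA. They did not change alike. *Nkx1-2* had means of 39.1, 79.5 and 77.7 RPKM in the same order. *Sox2* (5.20, 15.4 and 16.3 RPKM) and *Cdx1* (6.36, 21.8 and 24.4 RPKM) also had higher means at both doses than in DMSO. *Wnt3a* differed less, at 7.42, 8.48 and 8.63 RPKM. *Cdx2* had means of 5.09, 6.04 and 5.19 RPKM, and its samples with 1 µM RA overlapped those with DMSO. The means of *Fgf8* were lower with RA, at 58.3, 50.7 and 49.0 RPKM. *T*, the largest part of the sum, stayed at 375, 375 and 370 RPKM. The pluripotency gene *Pou5f1* was also high, at a mean of 445 RPKM in DMSO. The 5 pluripotency markers, 3 of them above 1 RPKM, together summed to between 459 and 495 RPKM across the 6 samples. In contrast, the summed RPKM of 5 definitive endoderm markers, of which 4 were above 1 RPKM in every sample, was 44.4 to 44.6 in DMSO, 37.0 to 37.3 with 25 nM RA and 33.8 to 36.2 with 1 µM RA. Sums for 4 presomitic mesoderm markers were 55.2 to 56.2, 43.6 to 46.6 and 39.0 to 41.0 RPKM in the same order, and those for 4 node markers, 2 of them above 1 RPKM, were 9.91 to 10.5, 8.32 to 8.64 and 7.89 to 8.08 RPKM. For 4 markers of fibroblast feeders, 2 of them above 1 RPKM, the sums were 5.41 to 5.62, 5.19 to 5.46 and 4.73 to 4.89 RPKM. The genes within these lists did not change alike either. The means of *Cxcr4* (endoderm) were 13.4, 12.9 and 12.9 RPKM, and those of *Dll1* (presomitic mesoderm) were 17.9, 17.7 and 18.3 RPKM. Those of *Thy1* (feeders) were 1.74, 1.86 and 1.83 RPKM. The 4 neural markers summed to at most 0.354 RPKM, none above 1 RPKM in any sample. The part of these other cell types in the results below was not tested.

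In DMSO the 9 genes spanned a wide range of levels per transcript length, and the RPKM ranges of neighbors in the order did not overlap. *Tdgf1* was highest, at 154 ± 7.52 RPKM (SD, n = 2), above 98.1% of all genes measured. It was followed by *Foxh1* at 61.5 ± 0.313 RPKM, *Lefty2* at 37.6 ± 2.20 RPKM, *Lefty1* at 21.5 ± 0.758 RPKM and *Nodal* at 17.4 ± 0.640 RPKM. The receptors were lower, with *Acvr2b* at 13.3 ± 0.260 RPKM and *Acvr1b* at 7.06 ± 0.123 RPKM. At the low end were *Cfc1*, the other co-receptor gene, at 3.58 ± 0.250 RPKM and the ligand gene *Gdf3* at 1.66 ± 0.171 RPKM, a level above 50.5% of all genes. The order changed with RA at a single gene. *Lefty1* passed *Lefty2* at 25 nM RA, where its range overlapped that of *Foxh1*, and was the second highest of the 9 at 1 µM RA.

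**Figure D1:**
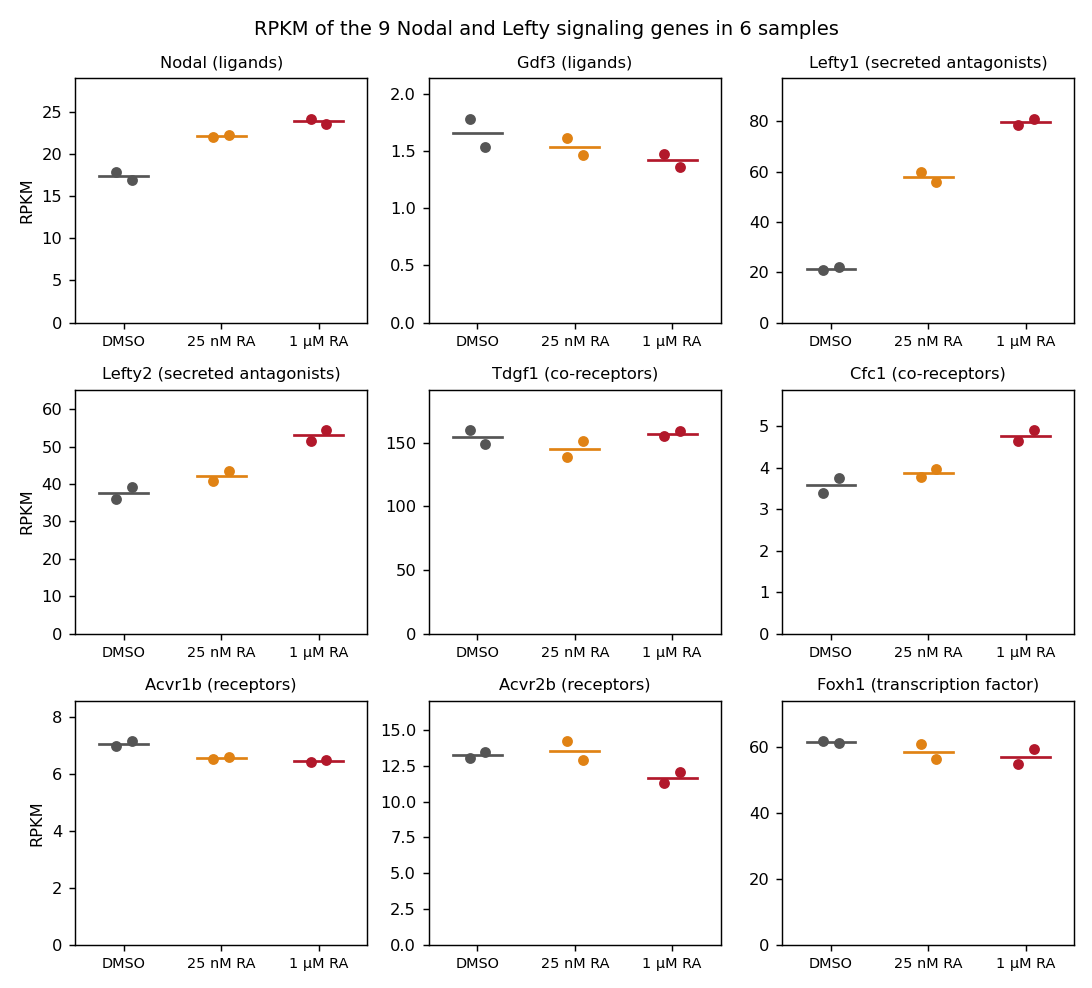
RPKM (linear axes from 0) of the 9 genes in each of the 6 samples (points) with the mean of each group (lines), for DMSO, 25 nM RA and 1 µM RA. *Lefty1* increased from 20.9 and 22.0 RPKM in DMSO to 78.5 and 80.9 RPKM with 1 µM RA, whereas the DMSO samples of *Tdgf1* overlap those of each dose, with all 6 at 138 to 160 RPKM.

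*Lefty1*, *Nodal* and *Lefty2* were upregulated with 25 nM RA, whereas the other 6 genes were not called. With 1 µM RA the same 3 genes and *Cfc1* were upregulated and *Acvr2b* was downregulated. A gene was called with an adjusted p under 0.1 in the likelihood ratio test of edgeR, after Benjamini-Hochberg adjustment over the 15143 genes tested, which included all 9. Across all tested genes 4.5% were upregulated and 3.55% downregulated with 25 nM RA, against 3 of 9 upregulated here. For 1 µM RA the shares across all tested genes were 8.54% upregulated and 11.2% downregulated, against 4 and 1 of 9. The median of the absolute log2 fold changes of the 9 genes was 0.12 with 25 nM RA and 0.24 with 1 µM RA, and across all tested genes it was 0.075 and 0.11. The 9 genes were chosen with earlier results of these data known, so these shares and medians do not test them as a set. Both comparisons share the DMSO samples and are therefore not independent of each other. Since RNA was taken from whole dishes, fewer cells of a type and less RNA per cell cannot be told apart.

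**Figure D2:**
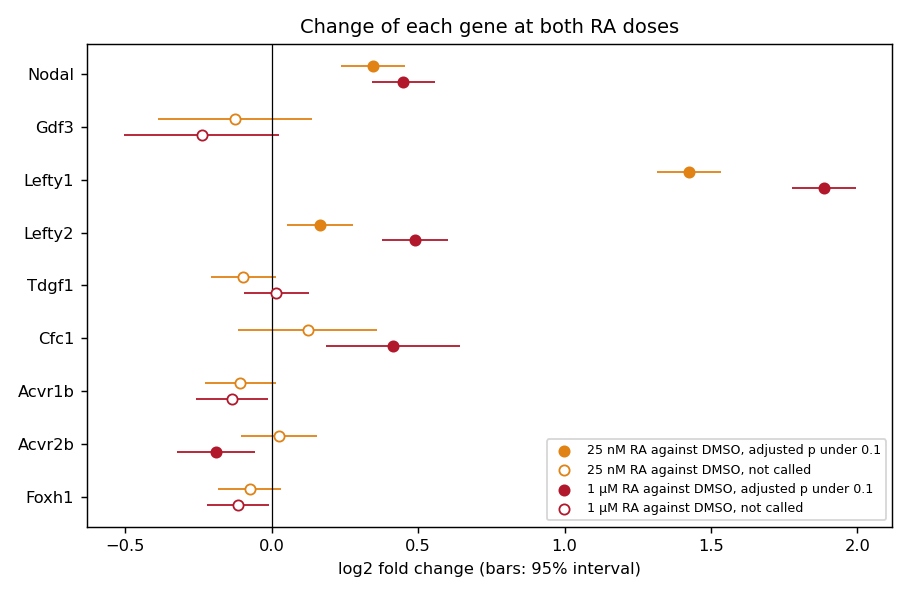
Log2 fold change against DMSO of the 9 genes with 25 nM RA (orange) and 1 µM RA (red), with bars for 95% intervals from the standard error of the fit; filled points had an adjusted p under 0.1. The change of *Lefty1*, 1.42 and 1.89, lies far to the right of those of the other 8 genes, whose values are between -0.24 and 0.49.

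Among the ligands, *Nodal* (chr10:61417972-61425337, plus strand, mm10) had 17.9 and 16.9 RPKM under DMSO, 22.0 and 22.3 RPKM at 25 nM RA, and 24.2 and 23.6 RPKM at 1 µM RA. All 4 RA-treated samples were above both DMSO samples, and the samples with 1 µM RA were above those with 25 nM RA. The log2 fold change was 0.35 with 25 nM RA (SE 0.056; edgeR adjusted p = 3.7e-08) and 0.45 with 1 µM RA (SE 0.055; adjusted p = 2.8e-14), which are folds of 1.27 and 1.37. The difference between the doses, 0.10 with a 95% interval of -0.0025 to 0.21, did not pass the test (adjusted p = 0.4). *Gdf3* (chr6:122605403-122610071, minus strand), which encodes a TGF-beta family ligand that also needs an EGF-CFC co-receptor, had few counts, 126 to 193 per sample. It was at 1.78 and 1.54 RPKM under DMSO, 1.61 and 1.46 RPKM at 25 nM RA, and 1.47 and 1.36 RPKM at 1 µM RA. Its samples overlapped between DMSO and 25 nM RA but lay below DMSO with 1 µM RA, and neither dose passed the test. The log2 fold changes were -0.12 (95% interval -0.39 to 0.14) with 25 nM RA and -0.24 (-0.51 to 0.026) with 1 µM RA.

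The secreted antagonist genes include *Lefty1*, which had the largest change of the 9 at both doses. *Lefty1* (chr1:180935039-180938401, plus strand) had 20.9 and 22.0 RPKM under DMSO, 59.9 and 55.8 RPKM at 25 nM RA, and 78.5 and 80.9 RPKM at 1 µM RA. The 3 groups did not overlap, and both samples with 1 µM RA were well above both with 25 nM RA. The counts behind these values were 1729 and 1493 under DMSO, 3694 and 4326 at 25 nM RA, then 5467 and 5702 under 1 µM RA. *Lefty1* rose 2.69-fold with 25 nM RA (log2 fold change 1.42, SE 0.056; edgeR adjusted p = 2.4e-138) and 3.70-fold with 1 µM RA (1.89, SE 0.055; adjusted p = 8.1e-247). The increase from 25 nM to 1 µM RA was itself called, at a log2 fold change of 0.46 (SE 0.052; edgeR adjusted p = 1.6e-15). *Lefty1* was the only gene of the 9 that met the study's thresholds for its list of activated genes at either dose, a mean RPKM above 1 and a log2 fold change above 1 in addition to the adjusted p, which 0.442% of all tested genes met with 25 nM RA and 0.568% with 1 µM RA.

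*Lefty2* (chr1:180893119-180899102, plus strand) started at a higher level than *Lefty1* and had its larger change at the higher dose. It had 36.0 and 39.1 RPKM under DMSO, 40.8 and 43.5 RPKM at 25 nM RA, and 51.6 and 54.4 RPKM at 1 µM RA. The groups were in order of dose without overlap, although the lower sample with 25 nM RA was close to the higher DMSO sample. With 25 nM RA the log2 fold change was 0.17 (SE 0.058; edgeR adjusted p = 0.063), a call that was lost without DMSO replicate 1 (adjusted p = 0.66), without 25 nM RA replicate 2 (0.65) and in DESeq2 (0.15), in a range of 0.024 to 0.66 over all alternatives. The rise with 1 µM RA was larger, at 0.49 (SE 0.057; edgeR adjusted p = 1.4e-15), and the step from 25 nM to 1 µM RA was called at 0.32 (SE 0.057; adjusted p = 8e-06).

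The proportion of these transcripts differed between groups. The ratio of *Lefty1* to *Lefty2* RPKM was 0.581 and 0.563 under DMSO, 1.47 and 1.28 at 25 nM RA, then 1.52 and 1.49 under 1 µM RA. *Lefty2* was thus the more abundant transcript in both DMSO samples and *Lefty1* in all 4 RA-treated samples. Since *Nodal* rose as well, the summed RPKM of both antagonists was also set against it. This ratio to *Nodal* was 3.19 and 3.61 under DMSO, 4.57 and 4.45 at 25 nM RA, then 5.38 and 5.72 under 1 µM RA. The ratio of *Lefty2* alone to *Nodal* overlapped between DMSO, 2.02 and 2.31, and 1 µM RA, 2.13 and 2.30, and was 1.85 and 1.95 with 25 nM RA.

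**Figure D3:**
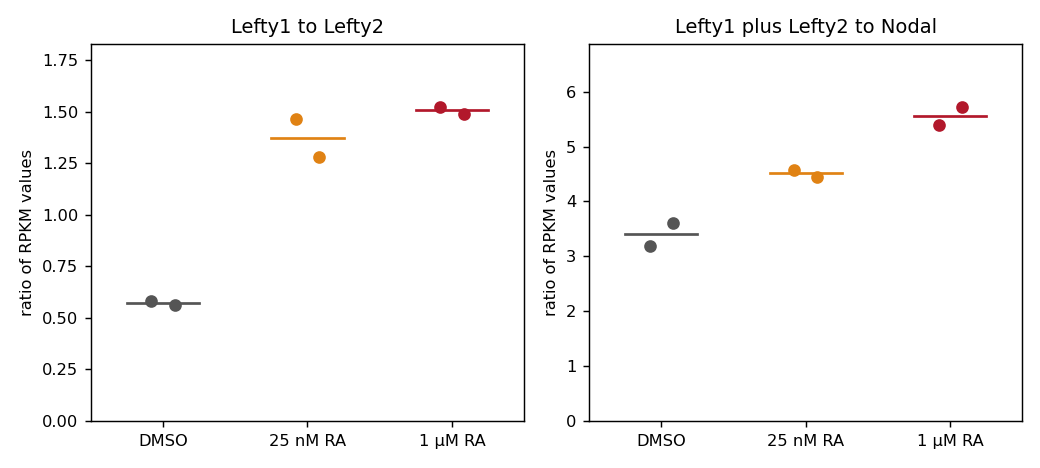
Ratios of RPKM values in each of the 6 samples (points) with group means (lines); left, *Lefty1* to *Lefty2*; right, *Lefty1* plus *Lefty2* to *Nodal*. Both ratios are higher in all 4 RA-treated samples than in the DMSO samples, and the left ratio crosses 1 between DMSO and 25 nM RA.

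*Lefty1* and *Lefty2* are genes of similar sequence on the same chromosome, 35936 bases apart. In GENCODE transcripts, 17.9% of the 50-base windows of *Lefty1* occur exactly in *Lefty2*, and 37.9% do so with at most 2 mismatches. Reads from such windows could have been divided between these genes by the authors' estimation. The level and the change of each are therefore less certain than those of *Nodal*, *Foxh1*, *Acvr1b* or *Acvr2b*, none of whose windows matched another gene. This also holds for the ratio of *Lefty1* to *Lefty2*. Of the windows of *Lefty2*, 11.6% occur exactly in another gene and 26.0% with at most 2 mismatches, mostly in *Lefty1*. Of those of *Cfc1*, 24.3% occur exactly in *Prss40*. Of the windows of *Tdgf1*, 12.5% occur exactly in another gene, mainly its pseudogene *Tdgf1-ps1*, which was not among the genes measured.

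The co-receptor genes differed widely in level, with *Tdgf1* at 32.4 to 46.9 times the RPKM of *Cfc1*. *Tdgf1* (chr9:110939608-110946158, minus strand) had 160 and 149 RPKM under DMSO, 138 and 151 RPKM at 25 nM RA, and 155 and 159 RPKM at 1 µM RA. The DMSO samples overlapped those of each dose, and both samples with 1 µM RA were above both with 25 nM RA. The log2 fold change was -0.10 with 25 nM RA (95% interval -0.21 to 0.013) and 0.02 with 1 µM RA (-0.094 to 0.13), neither of which passed the test. *Cfc1* (chr1:34535648-34544311, plus strand) had 3.40 and 3.76 RPKM under DMSO, 3.78 and 3.98 RPKM at 25 nM RA, and 4.64 and 4.91 RPKM at 1 µM RA. Both samples with 1 µM RA were above the 4 others, and the lower of those with 25 nM RA only just exceeded the higher DMSO sample. The change with 25 nM RA was not called (0.12, SE 0.12; edgeR adjusted p = 0.77). *Cfc1* rose with 1 µM RA (0.41, SE 0.12; edgeR adjusted p = 0.0045), a call that rests on 165 to 224 counts per sample and was lost without DMSO replicate 1 (adjusted p = 0.15) and in DESeq2 (0.16), with a range of 0.0039 to 0.16 over the alternatives. The end of *Cfc1* overlaps the gene *Prss40* on the other strand over 344 bases, but *Prss40* had at most 1 count in any sample. Genes on the other strand are also annotated within the spans of *Cfc1* (*Gm28419*) and *Acvr2b* (*Gm47320*), and whether the counting used strand is not given in the sources used here.

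The sequence upstream of the transcription start in the RefSeq annotation (GRCm38.p6) is shown for *Nodal*, the ligand gene that rose at both doses, *Cfc1*, the co-receptor gene that rose with 1 µM RA, and *Tdgf1*, the co-receptor gene that was not called. Each is 250 bases long and runs 5′ to 3′ on the strand of the gene, from chr10:61417722-61417971, chr1:34535398-34535647 and chr9:110946159-110946408. Capitals mark matches to the motifs searched.
Nodal: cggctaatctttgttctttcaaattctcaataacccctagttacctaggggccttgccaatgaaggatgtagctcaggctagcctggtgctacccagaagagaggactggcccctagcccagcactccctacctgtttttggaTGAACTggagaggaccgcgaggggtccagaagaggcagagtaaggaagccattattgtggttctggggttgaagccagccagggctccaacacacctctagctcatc
Cfc1: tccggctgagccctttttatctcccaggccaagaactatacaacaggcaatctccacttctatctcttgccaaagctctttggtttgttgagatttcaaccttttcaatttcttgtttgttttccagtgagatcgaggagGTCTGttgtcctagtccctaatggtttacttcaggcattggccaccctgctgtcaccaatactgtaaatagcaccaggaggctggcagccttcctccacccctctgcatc
Tdgf1: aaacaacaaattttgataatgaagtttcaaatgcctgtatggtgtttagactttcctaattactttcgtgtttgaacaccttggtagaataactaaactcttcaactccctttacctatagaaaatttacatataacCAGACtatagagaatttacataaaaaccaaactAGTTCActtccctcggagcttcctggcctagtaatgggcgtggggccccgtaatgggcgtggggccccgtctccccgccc
The motifs were searched on both strands and were the FOXH1 site AATCCACA, the SMAD box CAGAC, the SMAD palindrome GTCTAGAC, and the RAR half-sites AGGTCA or GGGTCA, with the related AGTTCA or else GGTTCA, singly or as direct repeats spaced by 2 (DR2) or 5 (DR5) bases. The capitals in *Nodal* are a half-site on the minus strand, 107 to 102 bases before the start. *Cfc1* has a SMAD box on the minus strand 110 to 106 bases before the start, and *Tdgf1* has a SMAD box at 113 to 109 and a half-site at 80 to 75 bases before the start. Such short words are common, since 42.2% of 32851 mouse promoter windows of this length held a SMAD box and 38.6% held a half-site. The FOXH1 site, present in 0.718% of windows, the palindrome (0.167%), DR2 (0.174%) and DR5 (0.0883%) matched in none of the 5 genes with an entry, which also include *Acvr1b* and *Acvr2b*. With such low shares, matches in 5 windows were unlikely for any set of genes, and sites outside the 250 bases were not searched. *Lefty1*, *Lefty2*, *Gdf3* and *Foxh1* were not among the entries.

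The receptor genes showed small differences. *Acvr1b* (chr15:101174125-101212601, plus strand), for the type I receptor, had 6.97 and 7.14 RPKM under DMSO, 6.53 and 6.59 RPKM at 25 nM RA, and 6.42 and 6.48 RPKM at 1 µM RA. Although all 4 RA-treated samples were below both DMSO samples, neither change passed the test. The log2 fold changes were -0.11 (95% interval -0.23 to 0.014) and -0.14 (-0.26 to -0.014), with edgeR adjusted p-values of 0.44 and 0.13. *Acvr2b* (chr9:119402501-119433506, plus strand), for the type II receptor, had 13.1 and 13.4 RPKM under DMSO, 14.2 and 12.9 RPKM at 25 nM RA, and 11.3 and 12.0 RPKM at 1 µM RA. The samples with 25 nM RA lay on both sides of those with DMSO, and the samples with 1 µM RA were the lowest of the 6. *Acvr2b* fell by 0.19 on the log2 scale with 1 µM RA (SE 0.068; edgeR adjusted p = 0.035). This call was lost without DMSO replicate 2 (adjusted p = 0.26), without 1 µM RA replicate 1 (0.24) and in DESeq2 (0.2), with a range of 0.016 to 0.26 over the alternatives.

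*Foxh1* (chr15:76668224-76669948, minus strand), for the DNA-binding partner of the SMADs, had 61.7 and 61.3 RPKM under DMSO, 60.9 and 56.3 RPKM at 25 nM RA, and 54.7 and 59.4 RPKM at 1 µM RA. All 4 RA-treated samples were below both DMSO samples, but the duplicates of each dose lay further apart than the nearest RA and DMSO samples. Neither change was called, at log2 fold changes of -0.07 (SE 0.055; edgeR adjusted p = 0.6) and -0.12 (SE 0.055; adjusted p = 0.15).

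Set directly against each other, the RA doses differed at 3 of the 9 genes. *Lefty1* and *Lefty2* were higher with 1 µM than with 25 nM RA, and *Acvr2b* was lower, by 0.21 on the log2 scale (95% interval of the change -0.35 to -0.081; edgeR adjusted p = 0.064). Across all tested genes 0.792% were higher and 2.62% lower with 1 µM than with 25 nM RA. The call of *Acvr2b* was lost without 25 nM RA replicate 1 (adjusted p = 0.63), without 1 µM RA replicate 1 (0.36), in edgeR's quasi-likelihood test (0.12) and in DESeq2 (0.38), in a range of 0.038 to 0.63. Differences for the others were not called, of which *Cfc1* had the largest, 0.29 with a 95% interval of 0.062 to 0.52 (edgeR adjusted p = 0.21).

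Of 37 further genes of the pathway, 35 were tested, and 4 rose and 10 fell with 25 nM RA, whereas 5 rose and 14 fell with 1 µM RA. *Inhba* and *Acvr1c* were too low to be tested. The genes given by name are those with the smallest adjusted p in each role and direction. Among all tested genes, 4.5% rose and 3.55% fell with 25 nM RA, while 8.54% rose and 11.2% fell with 1 µM RA.

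Of 4 further genes for extracellular inhibitors, 2 fell with 25 nM RA and 3 with 1 µM RA. *Fst*, which encodes the activin antagonist follistatin, had 111 and 104 RPKM under DMSO, 73.5 and 73.5 RPKM at 25 nM RA, and 65.6 and 63.0 RPKM at 1 µM RA. The groups did not overlap. Its log2 fold changes were -0.55 (SE 0.051; edgeR adjusted p = 4.7e-25) and -0.75 (SE 0.051; adjusted p = 6.4e-46). *Cer1*, for the secreted Nodal antagonist Cerberus, fell at both doses, by 0.52 with 25 nM RA and 0.40 with 1 µM RA on the log2 scale (edgeR adjusted p = 8.4e-12 and 1.4e-07). *Dand5*, another antagonist of the Cerberus family, was near 1 RPKM in DMSO and fell with 1 µM RA, by 0.56 on the log2 scale (SE 0.22; edgeR adjusted p = 0.062). This call was lost in edgeR's quasi-likelihood test (adjusted p = 0.11) and in DESeq2 (0.37). It was also lost without DMSO replicate 2 and without 1 µM RA replicate 1, and the log2 fold change ranged from -0.91 to -0.29 over the alternatives.

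Inside the cell, *Skil* and *Ski*, whose products repress SMAD-dependent transcription, rose at both doses. *Skil* had 25.4 and 24.9 RPKM under DMSO, 38.6 and 38.8 RPKM at 25 nM RA, and 44.3 and 42.3 RPKM at 1 µM RA, without overlap. Its log2 fold changes were 0.62 and 0.78 (SE 0.050 at both; edgeR adjusted p = 7.9e-33 and 3.8e-52), and those of *Ski* were 0.31 and 0.29 (adjusted p = 6e-08 and 3e-07). *Tgif1*, for another corepressor of SMADs, fell by 0.27 and 0.42 on the log2 scale (edgeR adjusted p = 1.1e-05 and 3.8e-14). *Smad7*, for an inhibitory SMAD, fell with 1 µM RA by 0.31 (edgeR adjusted p = 0.011), and the other 5 of the 9 intracellular brakes were not called at either dose. Of the transducers, *Smad2* rose by 0.13 with 25 nM RA (edgeR adjusted p = 0.089) and by 0.20 with 1 µM RA (adjusted p = 0.00075). *Smad3* fell by 0.16 (adjusted p = 0.051) and the convertase gene *Furin*, whose product processes the Nodal precursor, fell by 0.18 (adjusted p = 0.043), both with 1 µM RA in edgeR. Several of these calls were lost without single samples and in DESeq2. The adjusted p of *Smad2* with 25 nM RA was 0.33 without DMSO replicate 1, 0.39 without DMSO replicate 2, 0.2 without 25 nM RA replicate 1, 0.53 without 25 nM RA replicate 2 and 0.25 in DESeq2. With 1 µM RA, the adjusted p of *Furin* was 0.57 without DMSO replicate 1, 0.14 without 1 µM RA replicate 1, 0.11 without 1 µM RA replicate 2 and 0.2 in DESeq2. For *Smad3* it was 0.37 without DMSO replicate 2, 0.33 without 1 µM RA replicate 1 and 0.22 in DESeq2, and for *Smad7* it was 0.17, 0.12 and 0.18 in the same order.

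The 12 genes listed as targets of the pathway in the early embryo included 1 that rose and 7 that fell with 25 nM RA, and 2 that rose and 7 that fell with 1 µM RA. *Mixl1*, a homeobox gene of mesendoderm, rose with 1 µM RA by 0.20 on the log2 scale (edgeR adjusted p = 0.0017). *Sox17*, a master regulator of endoderm that is also in the endoderm marker list above, had 6.84 and 6.68 RPKM under DMSO, 4.37 and 4.64 RPKM at 25 nM RA, and 3.53 and 3.34 RPKM at 1 µM RA. The groups did not overlap, and the log2 fold changes were -0.58 and -0.98 (edgeR adjusted p = 8.3e-15 and 3.5e-39). *Mesp1*, a gene of nascent mesoderm, and *Otx2*, of anterior epiblast, fell by 0.57 and 0.47 with 25 nM RA and by 0.58 and 0.55 with 1 µM RA on the log2 scale (the largest of the edgeR adjusted p-values was 1.3e-14). *T* was not called at either dose. *T*, *Sox17*, *Foxa2* and *Fgf8* of this list are markers of endoderm or NMPs in the sums above, so their results and those sums are not separate observations.

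**Figure D4:**
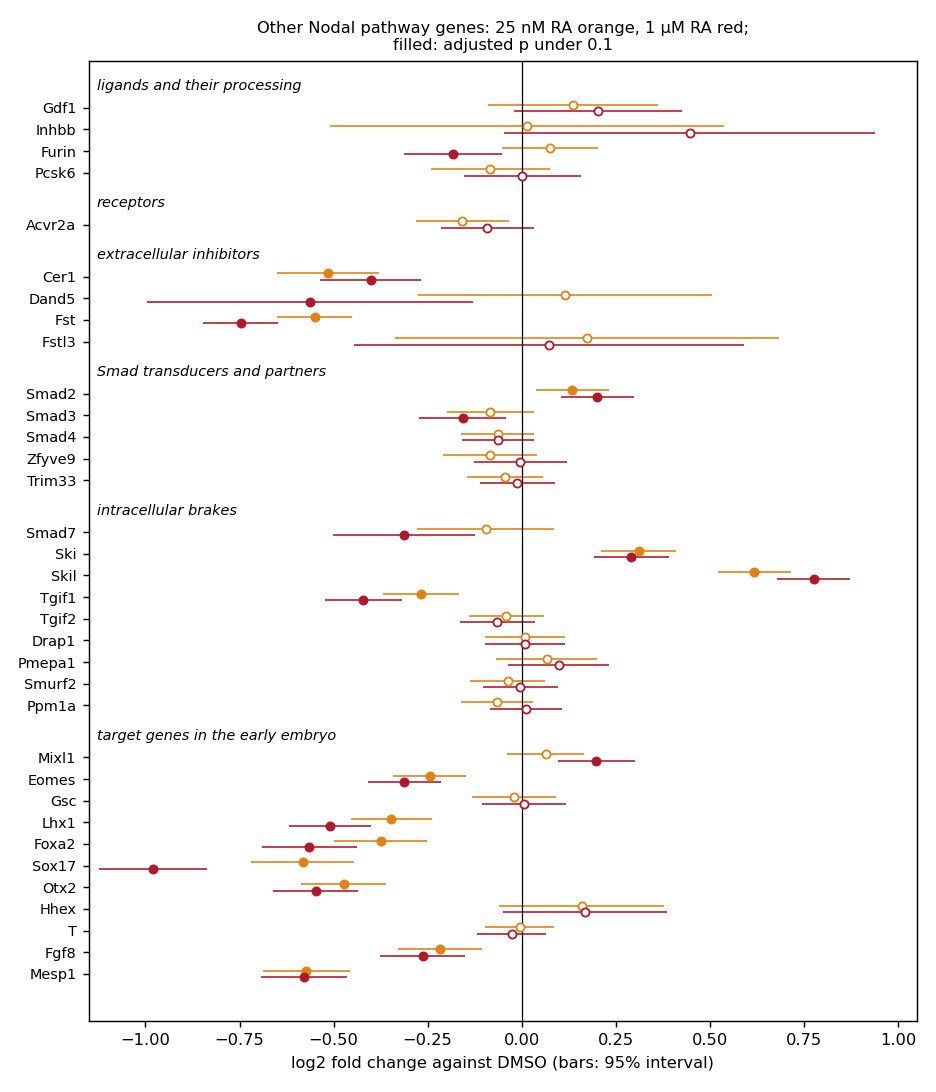
Log2 fold change against DMSO of 34 further pathway genes by role, with 25 nM RA in orange and 1 µM RA in red, bars for 95% intervals and filled points for an adjusted p under 0.1. Points for *Skil* and *Ski* lie to the right of 0 at both doses, and those for *Fst*, *Cer1*, *Tgif1*, *Sox17*, *Otx2* and *Mesp1* to the left.

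Between the RA doses, 1 of the 35 genes was higher with 1 µM RA, *Skil*, and 4 were lower, *Furin*, *Dand5*, *Fst* and *Sox17*. Across all tested genes 0.792% were higher and 2.62% lower. *Sox17* had a log2 fold change of -0.40 (SE 0.077; edgeR adjusted p = 8.9e-05) and *Fst* of -0.20 (SE 0.051; adjusted p = 0.011) between the doses. *Furin* differed by -0.26 (adjusted p = 0.0095), *Skil* by 0.16 (adjusted p = 0.056) and *Dand5* by -0.68 (adjusted p = 0.07; 0.17 in the quasi-likelihood test) in edgeR. The 5 calls became 1 without 25 nM RA replicate 1 or without 25 nM RA replicate 2, and 3 without 1 µM RA replicate 1.

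The genes whose values across the 6 samples were most like those of *Lefty1* and *Lefty2* were found by the Euclidean distance between log2 counts scaled to library size, centered on the DMSO mean. For *Lefty1* they were *Mnx1*, *Prdm1* and *Tbx3*, which encode transcription factors, at distances of 0.24, 0.24 and 0.26. All 3 were expressed at low levels in DMSO, between 0.121 and 1.18 RPKM, compared with 21.5 RPKM for *Lefty1*. *Mnx1* had log2 fold changes of 1.60 and 1.85, and *Prdm1* of 1.32 and 1.83. For *Lefty2* the nearest genes were *Nedd9*, *Asic4* and *Pgm2*, at distances of 0.11, 0.13 and 0.13. Their log2 fold changes with 1 µM RA were 0.42 to 0.47. *Asic4*, at only 0.182 RPKM in DMSO, was not called with 1 µM RA (SE 0.29, edgeR adjusted p = 0.32). None of these 3 genes was called with 25 nM RA. Because genes were picked by this distance, fold changes near those of *Lefty1* and *Lefty2* follow from the choice.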

How the data were processed

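Total RNA depleted of ribosomal RNA was sequenced by the authors as single-end reads from a stranded kit and aligned to mm10 with TopHat. The submitters' processing notes list FastQC 0.11, TopHat2 2.0.13, Bowtie2 2.2.5.0 and Partek 6.6. The authors estimated transcript abundance by expectation-maximization and deposited, for 30352 RefSeq transcripts of 20631 genes, estimated counts without normalization and RPKM values scaled by transcript length and the reads of the sample. Whether counting used strand is not given in the sources used here, so that reads of overlapping antisense genes may not be told apart. The totals that the RPKM values imply are larger than the deposited estimated counts, which make up 81.2% to 83.2% of them.

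Samples were grouped by their labels. Estimated counts and RPKM were summed per gene. The sums of counts, rounded to whole numbers, went into a single generalized linear model of the 6 samples (edgeR 4.0.16, R 4.3.3) with TMM factors of 0.989 to 1.008 after filterByExpr, and contrasts were tested by likelihood ratio, as in the study's methods. Benjamini-Hochberg adjustment was over 15143 genes, and a gene was called with an adjusted p under 0.1. Log2 fold changes have standard errors of the fit with 95% intervals, and RPKM values have SDs of the duplicates. Estimated counts were used for tests and RPKM for levels. The tests were tried on simulated data. Alternatives included the quasi-likelihood test of edgeR, the Wald test of DESeq2 1.42.0, other scalings and filters, fits of fewer samples, a block for the replicate number, a threshold of 0.05 and tests of single transcripts. Ranges given over the alternatives are of fits on gene sums and leave out the tests of single transcripts.

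The 9 genes, the pathway and marker lists were chosen with earlier results of these data known. All 9 genes are named. Of the pathway list, the called genes of each role are named, at most 3 per direction and dose in order of adjusted p. Results for some genes are not reported here. The genes with a similar pattern are the 3 nearest to each of the 2 genes with the smallest adjusted p with 1 µM RA. Positions are from the deposited tables (mm10, counted from 1), and sequences are from RefSeq (GRCm38.p6), which had upstream entries for 5 of the 9 genes. Further steps used pandas 2.3.3, numpy 2.4.6 and matplotlib 3.10.9 in Python 3.11.15.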

Additional observations from a re-analysis of the deposited data

How the results depend on the processing

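With 2 dishes per group of one experiment, p-values cover technical spread only. Of 405 alternative log2 fold changes of the 9 genes, 384 kept their direction and side of the threshold, as did 353 of 375 for the named pathway genes. *Lefty1* and *Nodal* kept every call under each alternative run on gene sums. Of 9 genes called with 1 µM RA, the count was 5, but 3 in DESeq2 and 3 with transcripts tested singly, and 4 to 6 when 1 sample was left out. With total counts in place of TMM it was 7, since *Acvr1b* (adjusted p = 0.069) and *Foxh1* (0.078) were gained, and *Foxh1* was also gained without 1 µM RA replicate 2 (0.047). Pathway genes called between the RA doses numbered 5, but 3 in DESeq2, 8 with total counts and 3 with an adjusted p under 0.05. They ranged from 1 to 6 when 1 sample was left out, with 1 without 25 nM RA replicate 1 or replicate 2 and 3 without 1 µM RA replicate 1. Among the named genes, directions reversed only for changes that were not called. *Acvr2b* with 25 nM RA ranged from -0.036 to 0.089 and *Foxh1* between the doses from -0.092 to 0.0073 when 1 sample was left out. *Tdgf1* with 1 µM RA was -0.0048 with total counts and -0.024 to 0.061 when 1 sample was left out. Leaving out a sample leaves a lone sample that is assumed to vary like the other groups. The cause was not tested in any of these cases. Replicate numbers gave no evidence of pairing (correlations of same-numbered deviations -0.041, 0.048 and -0.062). With the replicate number as a block, 3 of the 9 genes were called with 25 nM RA, 5 with 1 µM RA and 3 between the doses, as without it, and 13, 19 and 5 pathway genes against 14, 19 and 5 (*Smad2* was lost with 25 nM RA, adjusted p = 0.16).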

Other observations

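*Lefty2* and *Lefty1* lie in the same orientation on chromosome 1. The tested genes within 100 kb that are described here, *Ephx1*, *H3f3a*, *Tmem63a* and *Sde2*, differed less from DMSO than *Lefty1*. With 25 nM RA the smallest adjusted p among them was that of *Ephx1* (log2 fold change 0.40, SE 0.20; edgeR adjusted p = 0.3). With 1 µM RA, *Ephx1*, for a microsomal epoxide hydrolase, rose by 0.55 (SE 0.19; edgeR adjusted p = 0.03, range over the alternatives 0.011 to 0.35), *H3f3a*, for a histone H3 variant, by 0.14 (adjusted p = 0.027, range 0.014 to 0.3) and *Tmem63a* by 0.17 (adjusted p = 0.061, range 0.053 to 0.3), each a call that was lost under some alternatives. *Sde2* was at -0.0072 on the log2 scale (edgeR adjusted p = 0.96).

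The RPKM ratio of *Tdgf1* to *Cfc1*, the co-receptor genes, was 46.9 and 39.7 under DMSO, 36.6 and 38.0 at 25 nM RA, then 33.4 and 32.4 under 1 µM RA. DMSO did not overlap either dose, but the DMSO duplicates lay further apart than the nearest DMSO and 25 nM RA samples. Neither gene was called with 25 nM RA, and the ratio itself was not tested.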
